A study of Vitis rotundifolia with 12 samples.

Results

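A group of 38 gene models, of the 26394 counted in muscadine pedicels, was lower at maturity than at the pea-size stage in the weakly attached genotype and higher at maturity in the strongly attached genotype. They were chosen by their level in CPM, the count of a gene model per 1000000 reads counted on gene models in that library. In Ga. 12-3-22 (W), all 3 maturity libraries had to lie below all 3 pea-size libraries, with a maturity over pea-size ratio of at most 0.5. In Ga. 6-1-269 (S), all 3 maturity libraries had to lie above all 3 pea-size libraries, with a ratio of at least 2. Ratios were taken between group means with 0.5 CPM added to each, and a gene model needed a mean of at least 5 CPM in 1 or more of the 4 groups, which 15170 gene models had. The stage values therefore describe how the gene models were chosen, and no test of them is given as a finding.

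The study compared pedicels, the stalks that carry the berries, of W and S, because these genotypes differ in the force needed to pull a ripe berry off. The groups were W at maturity, W at the pea-size stage, S at maturity and S at the pea-size stage, each with 3 biological replicates and 1 library per replicate. All vines were Vitis rotundifolia (muscadine grape) grown at Citra, Florida, no transgene or mutation is named for either genotype, and the tissue was flash frozen after harvest with no other treatment. W and S are 1 genotype each of their attachment class, so a difference between them is one between 2 genotypes and cannot be told apart from attachment. The stages were the early pea-size berry and the mature berry, and the pedicel was sampled without separation into cell types. In such bulk tissue, fewer cells of a type and less RNA per cell cannot be told apart.

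A berry detaches at the abscission zone, a few layers of specialised cells where the pedicel meets the fruit. In abscission, these cells become responsive to hormones such as ethylene, loosen the walls between them with pectin- and cellulose-degrading enzymes, and leave a protective scar on the stalk side. Auxin flowing out of the young fruit is known to hold the zone inactive, and its decline as the fruit ages makes the zone sensitive to ethylene. A pedicel also holds the vascular bundles that feed the berry, so its transcripts come from conducting, supporting and storage tissue as well. The gene models carry identifiers of the 'Noble' muscadine annotation, and 0 of them occurred in the table of gene names at hand, so no gene name, role or sequence is given. The gene models with the extreme ratios are named, and the others are given by chromosome and by rank, with rank 1 for the largest summed size of both log2 ratios.

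Gene counts per library were 4705119 to 12316295 at W maturity, 6769232 to 15404644 at W pea-size, 10538143 to 21971736 at S maturity and 9785778 to 14067641 at S pea-size. One library stood apart. S maturity 1 had a rank correlation of 0.778 and 0.751 across gene models with the other S maturity libraries, which reached 0.960 with each other. The range was 0.957 to 0.965 within S pea-size, 0.871 to 0.906 within W pea-size and 0.899 to 0.968 within W maturity. Reads on no gene model were 30.4% of the total of S maturity 1, against 21.8% in S maturity 2 and 10.6% to 17.6% in the other 10 libraries. Values of S maturity are therefore given for each library, and results without S maturity 1 follow further on.

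The levels of the 38 gene models together summed to a mean of 407 CPM at W maturity and 1263 CPM at W pea-size, and of 1297 CPM at S maturity and 313.9 CPM at S pea-size. By library, the sum was 361.9, 426.9 and 432.3 CPM in the W maturity libraries, against 933.4, 1235 and 1620 CPM in the W pea-size libraries. In S, the sum was 1075, 1234 and 1582 CPM in the maturity libraries, against 280.9, 343.3 and 317.7 CPM in the pea-size libraries. The most abundant 4 members held 62.0% of the mean sum at W maturity, 59.3% at W pea-size, 43.6% at S maturity and 64.2% at S pea-size. Among single members, the median of the mean level was 3.41 CPM at W maturity (0 to 89.0), 10.5 CPM at W pea-size (1.63 to 282), 15.7 CPM at S maturity (1.58 to 266) and 1.86 CPM at S pea-size (0 to 111). W pea-size was the highest of the 4 groups for 18 members and S maturity for 20, while W maturity was the lowest for 18 and S pea-size for 20.

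Most members were gene models of low or middle abundance. The highest of the 4 group means was under 10 CPM for 11 members, 10 to under 100 CPM for 23 and at least 100 CPM for 4. Its median was 21.6 CPM over the members, against 35.5 CPM over all 15170 gene models at the level minimum. In 25 members at least 1 library had fewer than 10 counts, and in 19 at least 1 library had 0 counts. The spread between replicates had a median coefficient of variation (SD as a percent of the mean, n = 3) of 70.5% at W maturity, 34.4% at W pea-size, 55.5% at S maturity and 50.2% at S pea-size. Neither this spread nor the low counts were set beside other gene models of like level.

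**Figure D1:**
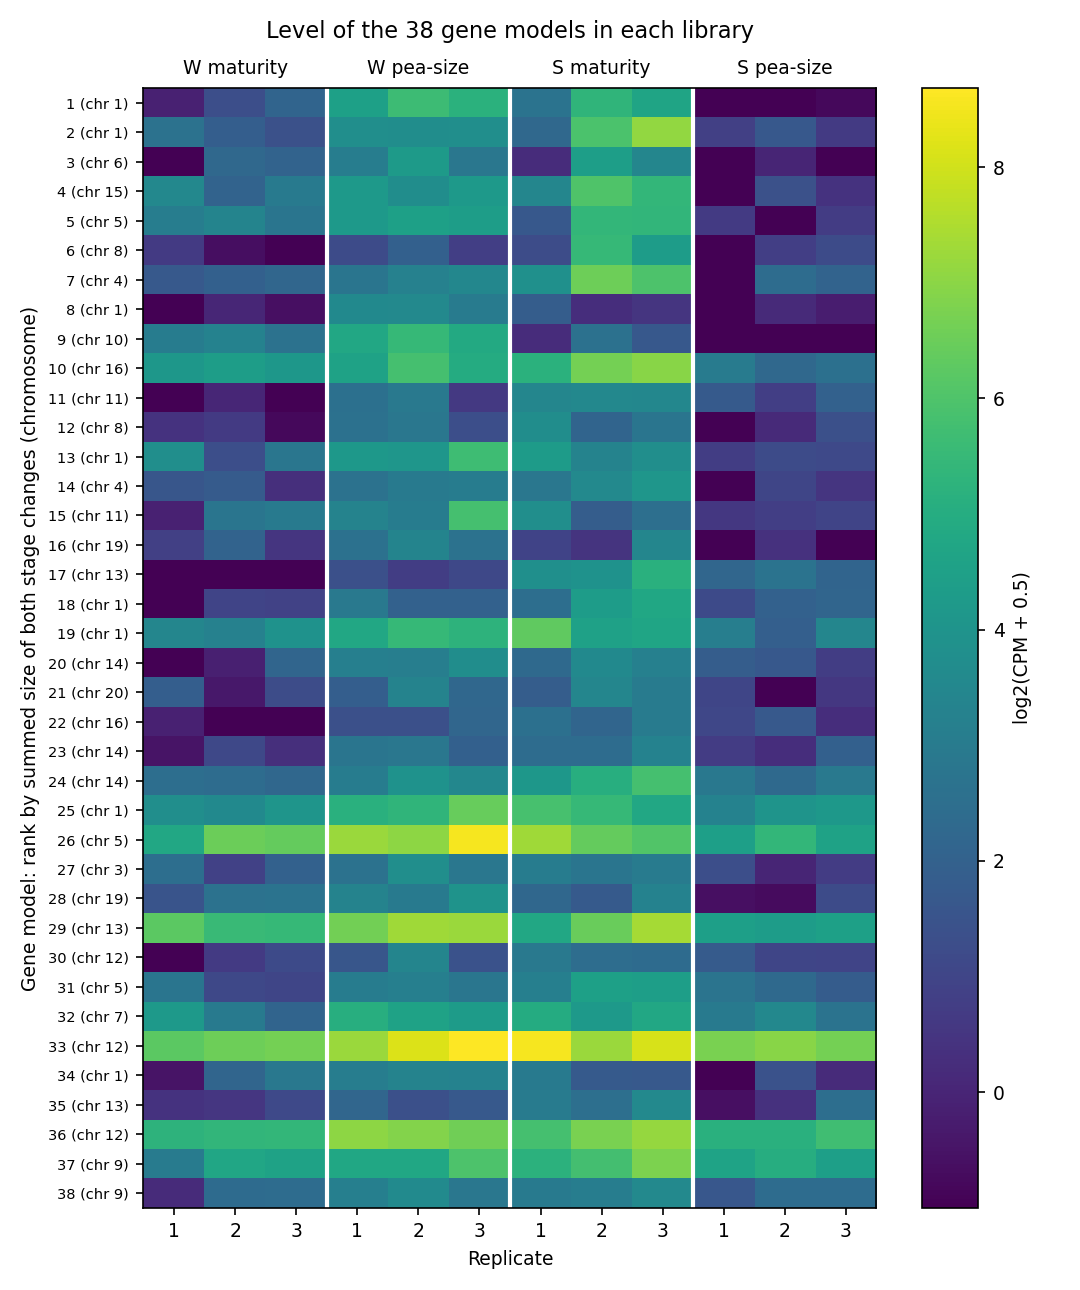
Level of each of the 38 gene models (rows, by rank and chromosome) in each of the 12 libraries (columns, 3 replicates of W maturity, W pea-size, S maturity and S pea-size), as log2 of CPM plus 0.5. Colour is not scaled by row, so brightness follows the level of a member as well as the group. Within each row, W pea-size lies above W maturity and S maturity above S pea-size. The rows of rank 26, 29, 33 and 36 hold the 4 members with the highest group means.

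The stage changes of the members were larger in S than in W. In W, the log2 ratio of maturity over pea-size had a median of -1.63 and ran from -3.87 to -1.01, against a median of 0.0 over all gene models at the level minimum, of which 50.1% were above 0. In S, the log2 ratio of maturity over pea-size had a median of 2.17 and ran from 1.03 to 5.54, against a median of -0.07 over all, of which 46.5% were above 0. The S change was larger in size than the W change in 26 of the 38 members. More gene models changed in S in general as well. By the bounds of the rule, 1212 were higher and 2271 lower at S maturity, against 569 higher and 657 lower at W maturity.

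The members made up 5.78% of the 657 gene models that passed the W part of the rule and 3.14% of the 1212 that passed the S part. The mirror image, higher in all W maturity libraries and lower in all S maturity libraries by the same bounds, took in 64 gene models, which were 11.2% of the 569 higher at W maturity and 2.82% of the 2271 lower at S maturity. All 4 of these totals, 657, 1212, 569 and 2271, were counted among the 15170 gene models at the level minimum. Whether either overlap was larger or smaller than the 2 parts of its rule would give by themselves was not tested. Without the bounds on the ratios, 93 gene models were separated in both genotypes in the members' direction, 0.613% of the 15170.

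**Figure D2:**
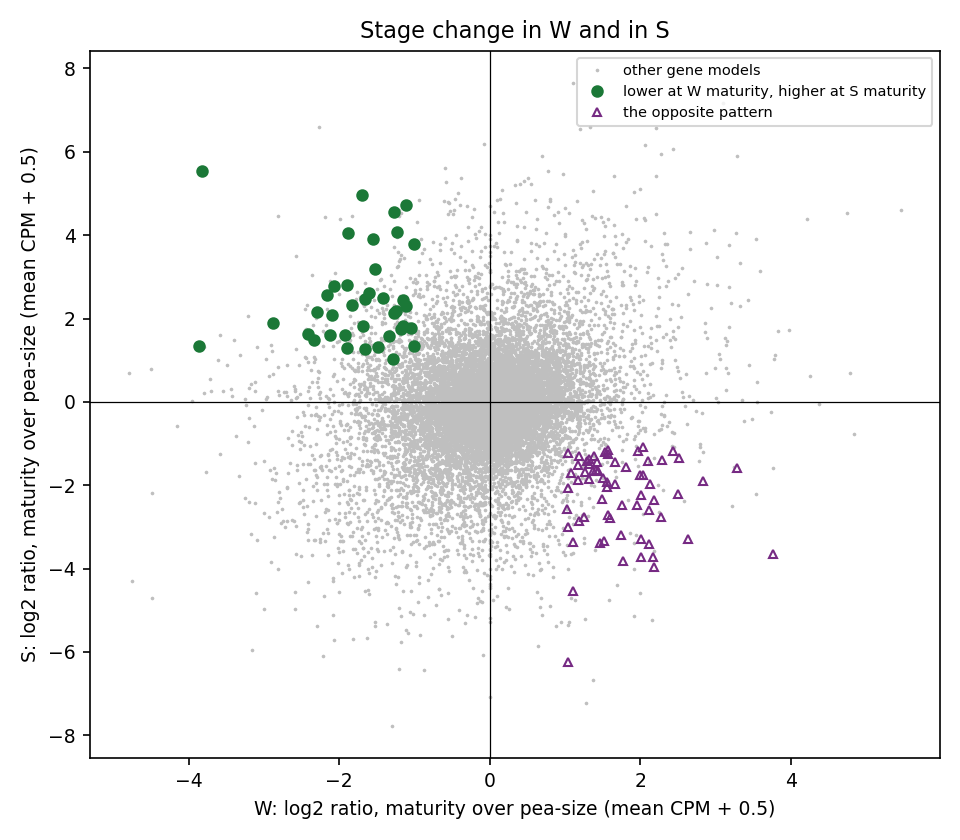
Log2 ratio of maturity over pea-size in W (horizontal axis) against the same in S (vertical axis), from group means of CPM plus 0.5, for the gene models at the level minimum. The 38 members (filled circles) lie at the upper left, with W ratios from -3.87 to -1.01 and S ratios from 1.03 to 5.54, and the 64 gene models of the mirror image (open triangles) lie at the lower right.

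Members and gene models left out lay close together at the bounds. The W ratios nearest inside the bound were 0.498 and 0.495, for members on chromosomes 16 and 9, and the nearest outside were 0.516 and 0.518, on chromosomes 7 and 6. The S ratios nearest inside were 2.04 and 2.40, on chromosomes 9 and 12, and the nearest outside were 1.94 and 1.89, on chromosomes 18 and 9. For the level, members with highest group means of 5.61 and 5.66 CPM stood beside gene models left out at 4.94 and 4.75 CPM.

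The widest swing of all members belonged to evm.model.chr1.1288 on chromosome 1, which ranked first by the summed size of both changes. Its level was 0.425, 2.03 and 3.82 CPM in the W maturity libraries, against 22.3, 49.9 and 36.2 CPM in the W pea-size libraries. In S, it was 5.98, 40.4 and 24.9 CPM at maturity, against 0, 0 and 0.0711 CPM at the pea-size stage. The groups were far apart in both genotypes, and the S pea-size value rested on 1 count in 3 libraries. Means were 2.09 ± 1.70 CPM at W maturity and 36.1 ± 13.8 CPM at W pea-size, and 23.8 ± 17.2 CPM at S maturity and 0.0237 ± 0.0410 CPM at S pea-size (SD, n = 3 each). The log2 ratio was -3.82 in W and 5.54 in S, and 4.93 in S without S maturity 2. Over pooled counts, 1405 at S maturity against 1 at S pea-size gave a ratio of 976.6, with an exact 95% counting interval of 175.0 to 38600. At the pea-size stage the W over S log2 ratio was 6.13, and at maturity it was -3.23, so the genotype with more of this transcript differed between the stages.

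The gene model with the next largest S change was evm.model.chr1.569, also on chromosome 1 and at rank 2. It had 5.74, 3.25 and 2.11 CPM in the W maturity libraries, against 13.2, 13.0 and 13.2 CPM in the W pea-size libraries. In S, it had 4.27, 60.2 and 137 CPM at maturity, against 1.29, 2.66 and 1.07 CPM at the pea-size stage. The W groups were separate, with little spread at the pea-size stage, while the S maturity libraries ran from close to the pea-size level to far above it, S maturity 1 being the low one. Means were 3.70 ± 1.86 CPM at W maturity and 13.2 ± 0.133 CPM at W pea-size, and 67.2 ± 66.7 CPM at S maturity and 1.67 ± 0.861 CPM at S pea-size (SD, n = 3 each). The log2 ratio was -1.70 in W and 4.96 in S, with 5.51 in S without S maturity 1 and 3.91 without S maturity 3.

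The largest W change was that of evm.model.chr1.2364, again on chromosome 1, at rank 8. It had 0, 0.541 and 0.162 CPM in the W maturity libraries, from 0, 4 and 2 counts, against 11.7, 11.4 and 7.60 CPM in the W pea-size libraries. In S, it had 3.13, 0.712 and 0.910 CPM at maturity, against 0, 0.613 and 0.355 CPM at the pea-size stage. W pea-size was by far its highest group, and the S libraries were low at both stages. The log2 ratio was -3.87 in W and 1.34 in S. Without S maturity 1, the highest S library of this gene model, the S value was 0.67, under the bound of the rule.

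Both abundant members on chromosome 12 spanned nearly the same range in W and in S, in opposite order. The most abundant, on chromosome 12 at rank 33, had 75.7, 91.8 and 99.5 CPM in the W maturity libraries, against 149, 286 and 411 CPM in the W pea-size libraries. In S, it had 379, 149 and 270.5 CPM at maturity, against 105, 125 and 101 CPM at the pea-size stage. S maturity 1 was the highest here. Its means were 89.0 ± 12.2 CPM at W maturity and 282 ± 131 CPM at W pea-size, and 266 ± 115 CPM at S maturity and 111 ± 13.0 CPM at S pea-size (SD, n = 3 each), with log2 ratios of -1.66 in W and 1.26 in S.

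A further member on chromosome 12, at rank 36, had nearly the same low and high levels in both genotypes. It had 38.3, 41.3 and 42.5 CPM in the W maturity libraries, against 131, 118 and 95.3 CPM in the W pea-size libraries. In S, it had 56.8, 107 and 143 CPM at maturity, against 35.0, 34.9 and 52.2 CPM at the pea-size stage. Mean levels were 40.7 ± 2.17 CPM at W maturity and 115 ± 18.1 CPM at W pea-size, and 102 ± 43.2 CPM at S maturity and 40.7 ± 9.98 CPM at S pea-size (SD, n = 3 each), and the log2 ratio was -1.49 in W and 1.32 in S. S maturity 1 lay just above the highest S pea-size library.

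The other abundant members were on chromosomes 5 and 13. That on chromosome 5, at rank 26, had 27.4, 91.0 and 84.0 CPM in the W maturity libraries, against 150.2, 132 and 370.4 CPM in the W pea-size libraries, and 159, 84.5 and 66.6 CPM in the S maturity libraries, against 21.7, 42.2 and 23.2 CPM in the S pea-size libraries. That on chromosome 13, at rank 29, had 75.0, 46.9 and 44.1 CPM in the W maturity libraries, against 97.0, 157 and 149 CPM in the W pea-size libraries. In S, the same gene model had 27.1, 89.0 and 167 CPM at maturity, against 21.4, 20.1 and 22.0 CPM at the pea-size stage. By their means, both were higher at W pea-size than at S maturity and lower at S pea-size than at W maturity. Both had wide S maturity groups, in which S maturity 1 was the highest for the chromosome 5 member and the lowest for the chromosome 13 member.

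**Figure D3:**
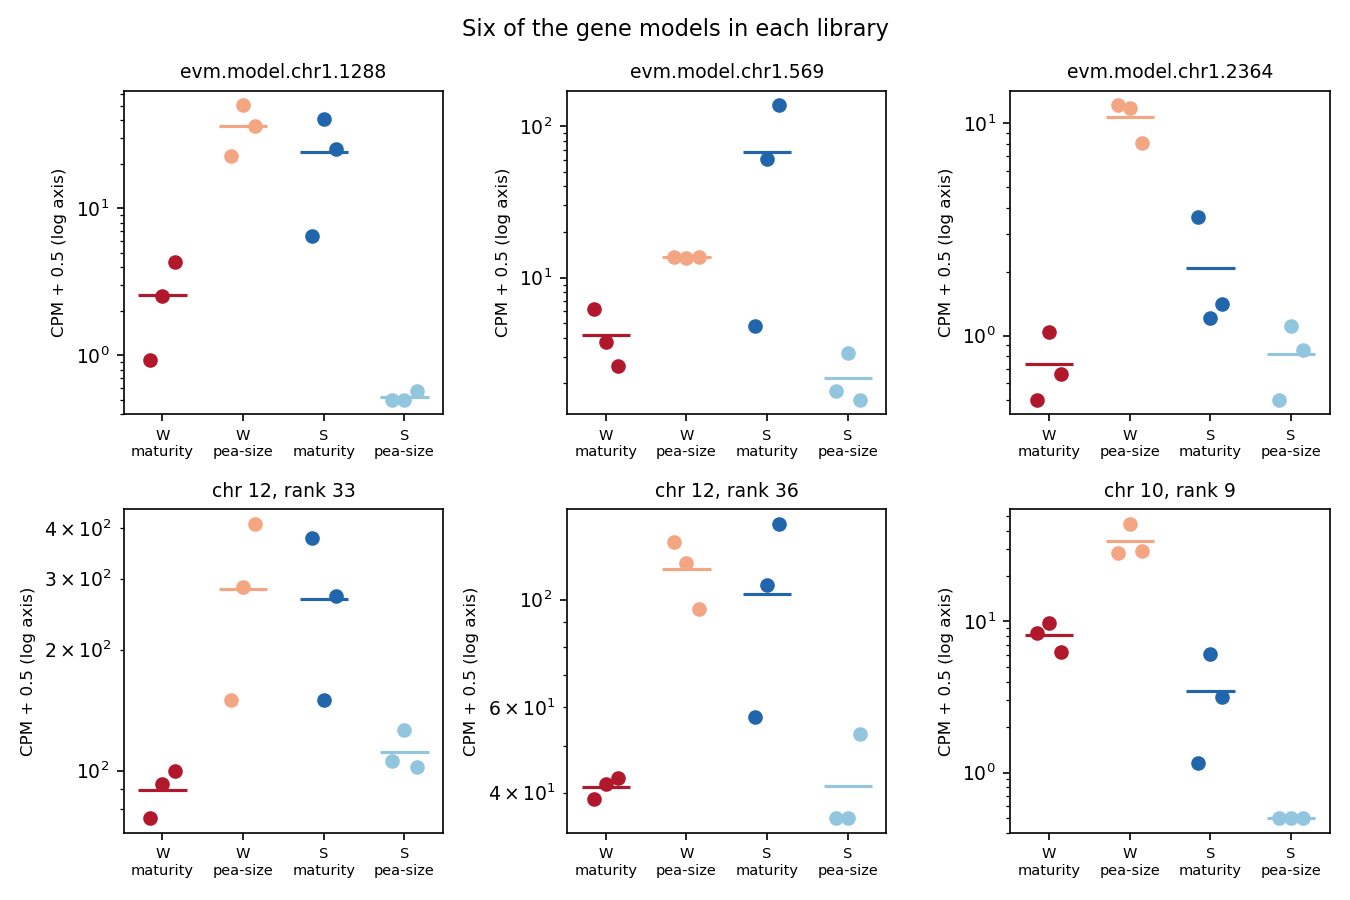
Level of 6 of the gene models in each library, as CPM plus 0.5 on a log axis, with 1 point per library and a line at the group mean, for W maturity, W pea-size, S maturity and S pea-size from left to right. In each panel the W maturity points lie below the W pea-size points and the S maturity points above the S pea-size points, and for the chromosome 10 model of rank 9 the S maturity points also lie below the W maturity points.

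Where the S change was large, the transcript was low or near 0 at S pea-size and of middle level at S maturity. The chromosome 15 member at rank 4 had 10.3, 64.9 and 41.6 CPM in the S maturity libraries, against 0, 2.15 and 0.853 CPM in the S pea-size libraries, while its W libraries held 10.8, 3.79 and 7.31 CPM at maturity, against 18.2, 13.0 and 17.9 CPM at the pea-size stage. The chromosome 5 member at rank 5 had 2.66, 41.6 and 40.7 CPM in the S maturity libraries, against 1.05, 0 and 1.14 CPM in the S pea-size libraries. In W, the same gene model had 8.08, 9.87 and 6.25 CPM at maturity, against 17.9, 22.2 and 20.7 CPM at the pea-size stage. S maturity 2 and 3 were alike in this gene model, and S maturity 1 stood well below them.

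The same shape returned in members on chromosomes 4, 6, 8 and 16. The chromosome 4 member at rank 7 had 13.9, 92.9 and 63.1 CPM in the S maturity libraries, against 0, 4.91 and 3.70 CPM in the S pea-size libraries. The chromosome 16 member at rank 10 had 35.6, 102 and 125 CPM at S maturity, against 7.74, 4.29 and 5.40 CPM at S pea-size, and its W ratio was the member value closest to the bound. Counts were lower for the rest. The chromosome 8 member at rank 6 had 1.90, 44.8 and 19.9 CPM at S maturity, against 0, 1.23 and 1.85 CPM at S pea-size, so that S maturity 1 lay at the pea-size level. The chromosome 6 member at rank 3 had 0.664, 21.1 and 10.3 CPM at S maturity, against 0, 0.511 and 0 CPM at S pea-size, again with S maturity 1 beside the pea-size libraries.

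Some members were at or near 0 at W maturity. The chromosome 13 member at rank 17 had 0 counts in the 3 W maturity libraries, against 2.09, 1.18 and 1.62 CPM in the W pea-size libraries. Taking 3 counts over the group as the most that a count of 0 allows, it was at least 13.3-fold lower at W maturity, from 48 counts at W pea-size. This gene model was mainly one of S, with 13.6, 14.9 and 34.5 CPM at maturity, against 4.03, 5.93 and 3.84 CPM at the pea-size stage. The chromosome 16 member at rank 22 had 2 counts at W maturity and 92 at W pea-size, and the pooled pea-size level was 38.25 times that of maturity, with an exact 95% counting interval of 10.29 to 320.5. The chromosome 11 member at rank 11 had 0, 0.541 and 0 CPM at W maturity, against 5.42, 7.09 and 1.04 CPM at W pea-size, and 10.2, 10.99 and 10.8 CPM at S maturity, against 2.82, 1.23 and 3.55 CPM at S pea-size. Its S maturity libraries, S maturity 1 included, were nearly equal.

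In one member, on chromosome 10 at rank 9, W stayed above S at both stages. It had 7.86, 9.20 and 5.76 CPM in the W maturity libraries, against 27.8, 43.9 and 28.7 CPM in the W pea-size libraries. In S, it had 0.664, 5.55 and 2.64 CPM at maturity, against 0 counts in all 3 pea-size libraries. From 174 counts at S maturity, it was at least 40.3-fold higher there than at S pea-size, again with 3 counts over the group as the limit. Each W maturity library was above each S maturity library, but the closest were near each other, with 5.76 CPM in W maturity 3 and 5.55 CPM in S maturity 2. In the edgeR test given further on, the W over S difference of this member at maturity was not called, at a log2 fold change of 1.42. The reverse case was the chromosome 13 member of rank 17 above, with W below S at both stages and W over S log2 ratios of -5.42 at maturity and -1.26 at the pea-size stage.

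For the rest, the genotypes changed places between the stages. W was above S at the pea-size stage and below S at maturity in 36 of the 38 members, as compared by group means. Since the rule asks for opposite changes, some difference between the genotypes at 1 or both stages follows from it, and the counts describe at which stage it lay. The median W over S log2 ratio was -1.84 at maturity (-5.42 to 1.23), against -0.08 over all gene models at the level minimum. At the pea-size stage the median was 2.05 (-1.26 to 6.13), against -0.13 over all. W was at least 2-fold below S at maturity and also at least 2-fold above S in pea-size pedicels in 21 members. In 8 members, that on chromosome 10 among them, only the pea-size condition was met, and in 9, that on chromosome 13 at rank 17 among them, only the maturity condition.

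The same held when single libraries were compared, in fewer members. All 3 W libraries lay below all 3 S libraries at maturity in 25 members (65.8%), where 12.8% of the gene models at the level minimum did so. At the pea-size stage, all 3 W libraries lay above all 3 S libraries in 28 members (73.7%), against 12.5% of the gene models at the level minimum. Both were met by 15 members (39.5%), against 0.705% of those gene models. These shares share libraries with the rule and stand as description.

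**Figure D4:**
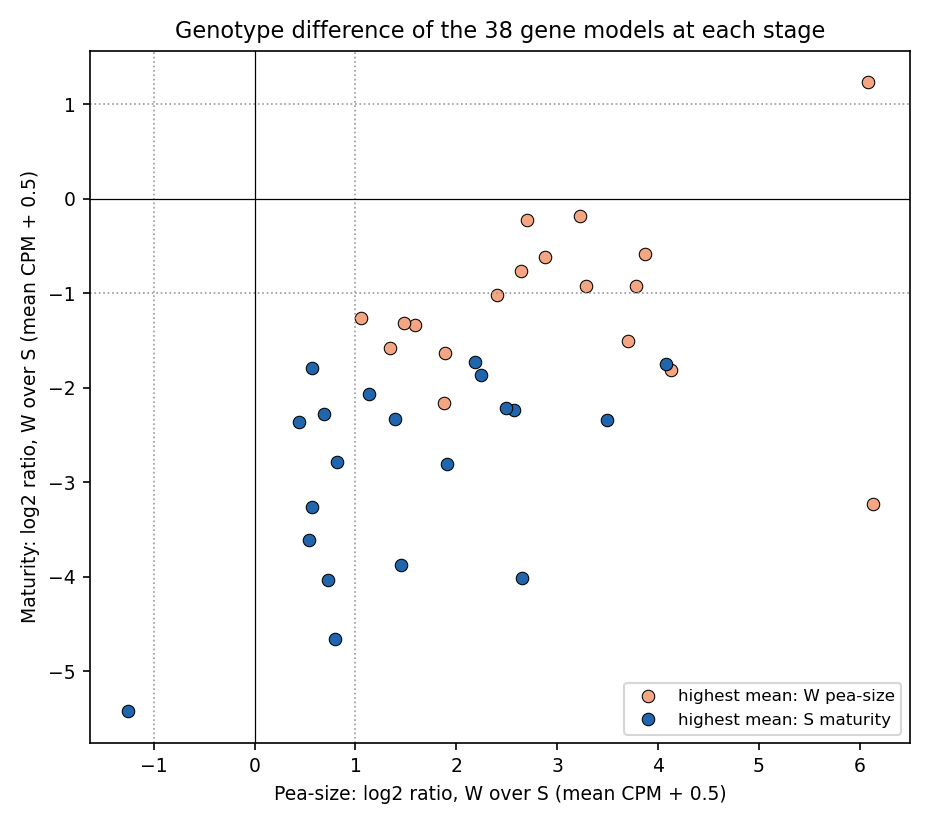
Log2 ratio of W over S at the pea-size stage (horizontal axis) and at maturity (vertical axis) for the 38 gene models, from group means of CPM plus 0.5, with colour for the group of the highest mean and dotted lines at a 2-fold difference. Of the points, 36 lie at the lower right, 1 lies at the upper right (the chromosome 10 member at rank 9) and 1 at the lower left (the chromosome 13 member at rank 17).

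The library that stood apart, S maturity 1, bore on the members in both directions. It was the lowest of the S maturity libraries for 22 members, the middle one for 4 and the highest for 12, against 73.0%, 11.9% and 15.1% of the 1212 gene models that passed the S part of the rule. Its log2 ratio to the mean of S maturity 2 and 3 had a median of -0.92 and ran from -4.38 to 1.72. In 9 members it was at least 4-fold below that mean, and it was the lowest library in 9 of the 10 members with the largest S change. Without it, the S log2 ratios of the 38 had a median of 2.13 (0.67 to 5.99), and 2 of them were under the 2-fold bound. Choosing the gene models without S maturity 1 gave 111 gene models in place of 38, of which 35 were members, so this library also kept many gene models out.

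Separation by rank does not say how far apart the libraries were. The closest pair of libraries across the stages, the lowest pea-size and the highest maturity library in W and the lowest maturity and the highest pea-size library in S, was compared for each member with an exact 95% counting interval. The pair differed by more than counting error in W for 19 members, in S for 24 and in both for 11. It lay within 1.2-fold in W for 10 members and in S for 7. Closest pairs were compared for the members alone, so these counts do not say whether such closeness was particular to them. At W maturity the shallowest library, W maturity 1, was the lowest for 18 members, W maturity 2 for 6 and W maturity 3 for 11, with ties left out. Over all gene models at the level minimum, set without the library in question, W maturity 1 lay below all 3 W pea-size libraries in 32.5%. That share was 19.3% for W maturity 2 and 20.6% for W maturity 3. Whether depth bore on this was not tested. At W pea-size, the highest library was W pea-size 1 for 7 members, W pea-size 2 for 19 and W pea-size 3 for 12.

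A fit across all gene models set the members beside the background. All 38 passed the filter on low counts, as did 18439 of all gene models. In edgeR's quasi-likelihood test, with a Benjamini-Hochberg adjusted p of at most 0.05 and a log2 fold change of at least 1 in size, W maturity against W pea-size called 6 of the 38 lower (15.8%), where the background was 0.499% of all gene models tested. S maturity against S pea-size called 18 higher (47.4%), against a background of 4.57%. Called in both genotypes were 3, at ranks 1, 25 and 36, in W alone 3, at ranks 8, 9 and 33, in S alone 15, and in neither 17. The rule used the same contrasts, so nothing is read from these shares.

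Of the members called in both, those at ranks 1 and 36 are given above, and the third, at rank 25, was on chromosome 1. It had 13.2, 11.6 and 16.2 CPM in the W maturity libraries, against 34.5, 40.0 and 85.9 CPM in the W pea-size libraries. In S, it had 58.3, 44.9 and 27.4 CPM at maturity, against 9.19, 15.4 and 17.6 CPM at the pea-size stage. It fell in W, with a log2 ratio of -1.93, and rose in S, with a log2 ratio of 1.60, and S maturity 1 was the highest S library. Its W pea-size and S maturity libraries were further apart than those of W maturity.

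The difference between the stage changes, the W change minus the S change, was called below 0 in 17 members (44.7%), against a background of 1.01%. The W over S difference was called below 0 at maturity in 14 members (36.8%), against a background of 3.48%, and above 0 at the pea-size stage in 16 (42.1%), against a background of 2.30%. Called at both stages were 6 members, at the pea-size stage alone 10, at maturity alone 8 and at neither 14. In these 5 comparisons 0 members were called in the other direction. All of them share libraries with the rule.

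These counts changed when single libraries were left out, which changes the fit for every gene model. The share of all gene models called is not given for these fits, so whether the changes were particular to the members was not tested. The W count was 3 without W maturity 1 and 2 without W maturity 2. The S count was 2 without any one of the S pea-size libraries and 6 without S maturity 2 or S maturity 3, and was 27 without S maturity 1. Without S maturity 1, the difference between the stage changes was called in 27 members. At maturity, the count of W over S calls was 4 without W maturity 2 or W maturity 3, 6 without S maturity 2 and 8 without S maturity 3. At the pea-size stage it was 9 without W pea-size 3, and 6, 10 and 7 without S pea-size 1, 2 and 3. In DESeq2, 9 members were called lower at W maturity, 34 higher at S maturity, 36 in the difference between the stage changes, 22 lower in W at maturity and 22 higher in W at the pea-size stage. The share of all gene models that DESeq2 called is not given, so nothing about the members is read from its higher counts.

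When the rule was applied to 11 libraries at a time, the library left out was read as a description. For a W library left out, 56.9% to 68.3% of the gene models so chosen had it on the rule's side of all 3 libraries of the other stage. Over all gene models at the level minimum, that share was 19.3% to 32.5%. For an S library other than S maturity 1, the share was 79.2% to 92.5% of those chosen, against 20.6% to 41.2% over all. For S maturity 1 it was 34.2% of the 111 chosen, against 24.6% over all. The libraries of the other stage had taken part in the choice, and so had the other 2 of the group, so these shares do not show that the pattern returned.

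The members were spread over 17 of the 20 chromosomes, with none on chromosomes 2, 17 and 18. Chromosome 1 held 8 of them (21.1%), where it held 6.28% of the gene models at the level minimum, 6.85% of those that passed the W part, 7.43% of those that passed the S part and 3.12% of the mirror image. Model numbers, the last part of each identifier, were taken as the order along a chromosome, since no coordinates were used here. By these numbers the 8 were not next to each other, as the smallest gap between successive ones was 45 and the median 113. They included all 3 of the gene models named above.

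One pair of members, on chromosome 19 at ranks 28 and 16, carried consecutive model numbers. The one at rank 28 had 2.34, 5.82 and 5.93 CPM in the W maturity libraries, against 9.60, 7.39 and 15.3 CPM in the W pea-size libraries, and 4.18, 2.85 and 9.19 CPM in the S maturity libraries, against 0.161, 0.102 and 1.85 CPM in the S pea-size libraries. The one at rank 16 had 1.28, 3.79 and 0.893 CPM at W maturity, against 5.56, 9.90 and 5.71 CPM at W pea-size. In S, the gene model at rank 16 had 1.42, 0.865 and 10.3 CPM at maturity, against 0, 0.818 and 0 CPM at the pea-size stage. Both were highest at S maturity 3 among the S libraries. Neighbouring gene models can share reads or be copies of one another, and whether these do was not tested. Among the 39 other neighbours at the level minimum, 11 (28.2%) had a lower mean at W maturity and a higher mean at S maturity, against 20.3% of all gene models at that level.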

How the data were processed

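RNA was sequenced from pedicels in 12 libraries, 3 biological replicates in each of 4 groups, which follow the labels of genotype and stage. The authors aligned trimmed reads against the genome of 'Noble' with STAR, removed potential PCR duplicates, and deposited whole-number read counts of uniquely mapped reads per gene model from HTSeq, whose strand setting is not given in the sources used here, so antisense or overlapping gene models could share reads. A tissue type label, which read mature for all libraries, was not used. The summary entries of reads not counted on a gene model (15.2% to 34.7% of a library) were left out of library totals and tests, and 0 identifiers matched the table of gene names.

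CPM, ratios and counting intervals were computed in Python 3.11.15 with pandas 2.3.3 and SciPy 1.17.1. Tests used R 4.3.3 with edgeR 4.0.16 (TMM, filterByExpr over all 12 libraries with a minimum count of 10 and a minimum total of 15, robust quasi-likelihood fits, Benjamini-Hochberg), on the 6 libraries of a genotype for each stage change and on all 12 for the other contrasts, and were checked on simulated data. DESeq2 1.42.0, its size factors in edgeR, no filter, a replicate block, other bounds and scalings of the rule and leaving out each library were the alternatives. Intervals and limits cover counting error only, and p-values set a difference between groups against the spread between these libraries. The gene models named are the 2 members with the largest S ratio and the 2 with the smallest W ratio, 1 of which is in both. The members, lists and tests were chosen with earlier results of these data known.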

Additional observations from a re-analysis of the deposited data

Results flagged for a closer look

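The 2 genotypes changed in opposite directions in 38 gene models, lower in every W maturity library and higher in every S maturity library than at the pea-size stage. The rule that chose them fixes this, so the difference between the genotypes was not tested as a finding. Reads on no gene model, which entered no comparison, took 30.4% of the reads of S maturity 1 and 21.8% of those of S maturity 2, against 10.9% to 14.6% in the S pea-size libraries.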

How the results depend on the processing

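The number of gene models chosen was 68 with a ratio of at least 1.5, 16 with a ratio of at least 3, and 40 to 111 with 1 library left out (58 without W maturity 2, 60, 63 and 65 without W pea-size 1, 2 and 3, and 111 without S maturity 1). It was 47 with TMM-scaled CPM, 37 of them among the 38, 33 with 1 CPM added, 40 with none added and 46 without the level minimum. The members called in the 5 comparisons stayed within 1.5 times their main counts under edgeR with DESeq2 size factors and without the filter on low counts. DESeq2 called 34 members higher at S maturity, 36 in the difference between the stage changes and 22 lower in W at maturity. With 1 library left out, the calls were 2 to 6 for W, 2 to 27 for S, 12 to 27 for the difference between the stage changes, 6 to 19 for the pea-size stage and 4 to 18 for maturity. The replicate block called 10 members in W, 8 in S and 9 at maturity, and 16 and 13 in the difference between the stage changes and at the pea-size stage. For these alternative fits the share of all gene models called is not given, so the counts describe the members alone. The labels do not say whether same-numbered libraries of the 2 stages belong together. Such libraries deviated from their group means with correlations of -0.086 to 0.029 in W and -0.055 to 0.038 in S. With 3 libraries per group, these values do not show whether the libraries were paired. Over these counts and the stage ratios of the named gene models, 0 changed direction, and 29 of the counts moved by over 1.5 times. Of the ratios, the S log2 ratio was 4.93 for evm.model.chr1.1288 without S maturity 2 (against 5.54), 3.91 for evm.model.chr1.569 without S maturity 3 (against 4.96) and 0.67 for evm.model.chr1.2364 without S maturity 1 (against 1.34). The cause of these shifts was not tested. In 25 of the 38 members, at least 1 library had fewer than 10 counts.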
